A study of Homo sapiens with 4 samples.

Results

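The messenger RNA of 10 receptor tyrosine kinases that are studied in glioma, *EGFR*, *ERBB2*, *ERBB3*, *PDGFRA*, *PDGFRB*, *MET*, *AXL*, *IGF1R*, *EPHA2* and *DDR2*, was measured in U87MG cells, an established human glioblastoma line. The members were chosen by name, with earlier results of these data known. All 10 were matched by symbol to an identifier among the 57905 genes of the count files. They all passed the filter on low counts that left 16416 genes. The series compared 2 untreated control samples with 2 samples treated with 50 nM chaetocin, a fungal metabolite known as a histone methyltransferase inhibitor, for 24 h. The cells carried the label wild type, the drug was given in DMSO and the control cells were left untreated, so an effect of the solvent cannot be told apart from one of the drug. The labels do not say whether the samples of a group came from separate experiments, and p-values therefore measure the spread between these samples.

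Receptor tyrosine kinases sit in the cell membrane, bind a growth factor outside the cell and phosphorylate tyrosines inside it. Adaptor proteins that bind these phosphotyrosines pass the signal to RAS and the MAPK kinases and to PI3K and AKT. In glioblastoma, amplification of *EGFR* is frequent, *PDGFRA* is amplified in some tumors, and *MET* and *AXL* are linked to invasion.

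The receptors share the fold of their kinase domain, so reads from one could in principle be counted on another. The coding sequence of the catalytic loop, among the most conserved stretches of the domain, is printed below for 9 of the receptors from GENCODE v29 transcripts, 5′ to 3′, with the codon of the catalytic aspartate in capitals.

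EGFR: caccgcGACctggcagccaggaac
ERBB2: cacaggGACttggccgctcggaac
ERBB3: catagaAACctggctgcccgaaac
PDGFRA: caccgtGATctggctgctcgcaac
PDGFRB: cacagaGACctggcggctaggaac
MET: cacagaGACttggctgcaagaaac
AXL: caccggGACctggcggccaggaac
IGF1R: cacagaGACcttgctgcccggaat
EPHA2: caccgtGACctggctgcccgcaac

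These 24 bases lie in coding exons, for *EGFR* in exon 21 (chr7:55191752-55191775, plus strand, GRCh38), for *ERBB3* in exon 21 (chr12:56097818-56097841, plus strand), and for *PDGFRB* in exon 18 (chr5:150120981-150121004, minus strand). The loop of *AXL* differed from that of *EGFR* at 2 bases, those of *PDGFRB* and *EPHA2* at 4 bases, and that of *ERBB3* at 7 bases. In *ERBB3* the marked codon is AAC in place of GAC or GAT, and ERBB3 is known as a receptor with very weak kinase activity that signals through its ERBB partners. At the read length of this study, 50 bases, 0 stretches of any receptor's longest coding transcript occurred in another of the 10 receptors. In *PDGFRA*, 22.8% of such stretches also occurred in AC058822.1, an annotated gene on the same strand that is not listed in the count files. For the other 9 receptors the share found in any other gene was between 0% and 3.06%. The counting tool and its strand setting are not given in the sources used here, so reads on the 186 exon bases that *EGFR* shares with *EGFR-AS1*, or on the 571 that *ERBB2* shares with *MIEN1*, cannot be assigned to a strand.

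The library totals ranged from 21241984 to 32590479 counts, and a count of 3, taken as the floor, equalled 0.0844 to 0.138 CPM, where 1 CPM is 1 read in 1000000 of the library size after TMM scaling. Chaetocin sample 2 stood apart in the number of genes with a read, 27748 against 24174 to 24699 in the other samples, among them control sample 2 with 30351416 counts. Markers of the line were mixed: *VIM* and *CD44*, mesenchymal genes, stood at 2797 and 2653 CPM in control sample 1, whereas the astroglial genes *GFAP* and *S100B* stood at 1.02 CPM and 0 reads there. Of 7 markers of the line 5 were tested and 0 called, against 0.743% of all genes tested called lower and 1.11% higher. In all 5 both chaetocin samples lay below both controls, against 26% of all genes. At an unadjusted p under 0.05, 3 were lower, against 9.43%, and the median log2 fold change of the 5 was -0.80. Their summed levels were 5500 and 4790 CPM in control and 3220 and 1970 CPM in chaetocin samples. *SOX2* and *S100B* had 0 reads in both controls. Of 8 leukocyte markers, 4 passed the filter and 2 (*PTPRC* and *ITGAM*) were called higher with chaetocin, against 1.11% of all genes tested. *PTPRC* had 0 and 1 reads in control against 15 and 27 in chaetocin samples, and *ITGAM* 0 and 1 against 24 and 29. Both passed the filter only through the chaetocin samples. This favoured calls in that direction, so the share over all genes is not a fair measure for them. The summed level of the list was 0.492 and 0.592 CPM in control and 2.62 and 3.27 CPM in chaetocin samples, and the B and T cell genes *MS4A1* and *CD3E* had 0 reads in all 4 samples. The endothelial markers, 2 of 5 tested, summed to between 5.04 and 5.60 CPM in control and 6.28 and 6.89 CPM in chaetocin samples. The epithelial markers, 3 of 7 tested, summed to between 2.33 and 2.99 CPM and 4.14 and 4.73 CPM, and *KRT5* and *KRT14* had 0 reads in every sample. None of the endothelial or epithelial markers was called. The part of such reads in the results below was not tested.

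In untreated U87MG cells the receptor messages spanned a wide range of levels. To compare genes, counts were divided by the total length of each gene's exons and given as RPKM, the CPM per kilobase of exon. *AXL*, the receptor for GAS6, was highest at 122 ± 6.92 RPKM (SD, n = 2), followed by *MET*, the receptor for hepatocyte growth factor, at 111 ± 5.82 RPKM. *DDR2*, which binds fibrillar collagen, stood at 36.1 ± 2.46 RPKM and *EGFR* at 21.6 ± 1.36 RPKM. The ephrin receptor *EPHA2* followed at 13.1 ± 1.42 RPKM and *PDGFRB* at 8.94 ± 2.87 RPKM.

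The other 4 receptors were low. *IGF1R*, the receptor for insulin-like growth factors, stood at 2.76 ± 0.17 RPKM and *ERBB2*, the ERBB member without a known ligand, at 0.615 ± 0.0012 RPKM. *PDGFRA* stood at 0.375 ± 0.095 RPKM and *ERBB3* at 0.0982 ± 0.030 RPKM. *AXL* and *MET* lay above 98.5% and 98.2% of tested genes of known length, *EGFR* above 86.3%, *IGF1R* above 44.9% and *ERBB3* above 5.53%. In this order no receptor's control samples overlapped with those of the next, although *AXL* and *MET* differed by only 1.10-fold, with 127 and 117 RPKM in the *AXL* samples and 107 and 115 RPKM in the *MET* samples. The order was the same with the longest transcript as length and with library totals as scale. Gene lengths come from an annotation that may differ from the one used for counting, so levels between genes are approximate.

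**Figure D1:**
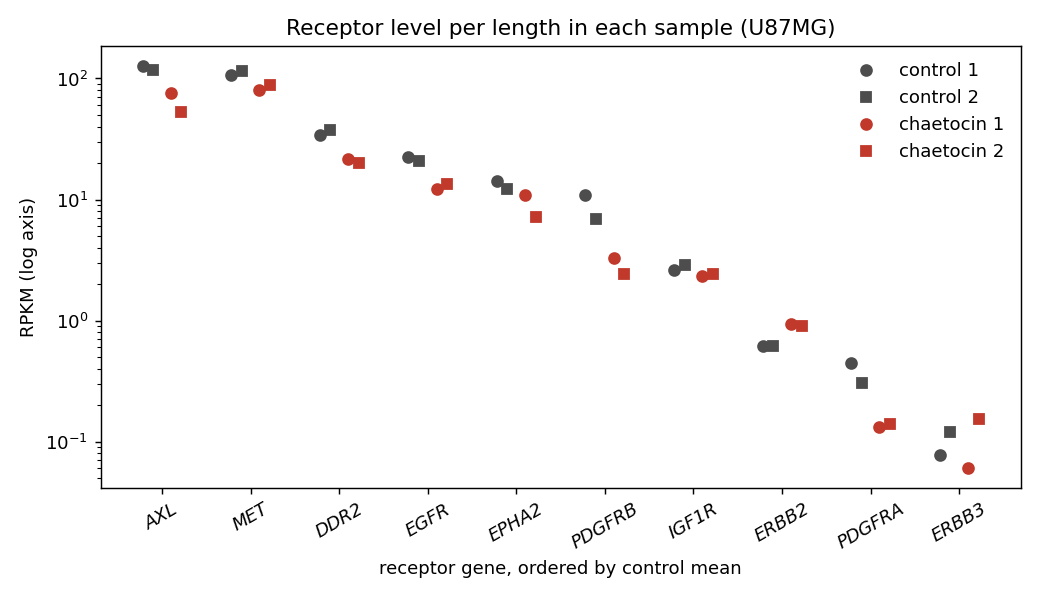
RPKM (log axis) of the 10 receptor genes in each of the 4 samples, ordered by the control mean; each point is a sample, gray for control and red for chaetocin. *AXL* and *MET* lie near 100 RPKM and *ERBB3* near 0.1 RPKM, and the red points of 8 receptors lie below both gray ones.

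The order with chaetocin was the same but for *MET* and *AXL*, which exchanged the first places. With chaetocin *MET* stood at 84.4 ± 5.94 RPKM and *AXL* at 64.4 ± 15.7 RPKM (SD, n = 2 each). Summed over the 10 receptors, the level was 320 and 314 RPKM in control cells against 207 and 189 RPKM after chaetocin. Both chaetocin samples were thus below both controls. *AXL* made up between 28.2% and 39.6% of this sum in each sample and *MET* between 33.5% and 47.0%, so the sum mostly follows these genes. In bulk RNA, fewer cells that express a gene and less of its RNA per cell cannot be told apart.

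Of the 10 receptors, 2 were called lower and 0 higher with chaetocin at an adjusted p under 0.05 (edgeR's quasi-likelihood test with Benjamini-Hochberg adjustment over all genes tested), against 0.743% of all tested genes called lower and 1.11% called higher. At an unadjusted p under 0.05, 7 receptors were lower and 1 was higher, against 9.43% and 10.9% of all genes. In 8 receptors both chaetocin samples lay below both control samples, against 26% of all genes, and in 1 both lay above, against 26.8%. The median log2 fold change was -0.64 over the 10 receptors and 0.0079 over all genes tested. Abundant genes, to which most receptors belong, were lower in a larger share. Of the 6238 genes at or above a mean of 5 on the log2 CPM scale, which include 7 of the receptors, 1.36% were called lower, 16.6% were lower at an unadjusted p under 0.05, and 38.7% had both chaetocin samples below both controls, with a median log2 fold change of -0.10. This split by level was chosen after the receptor values were seen. The receptors themselves were chosen with earlier results of these data known, so the shares above are descriptive.

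Positions given with the genes below are the GENCODE v29 gene bounds on GRCh38. The PDGF receptors bind platelet-derived growth factors and drive the growth of mesenchymal and glial progenitor cells. *PDGFRB* (ENSG00000113721, chr5:150113837-150155872) fell and was the receptor with the largest change when all samples were used. Without chaetocin replicate 2 the log2 fold change of *PDGFRA* was larger, at -1.50. The level of *PDGFRB* was 78.3 and 49.3 CPM in control cells against 23.5 and 17.2 CPM after chaetocin, with counts of 1910, 1418, 511 and 611. The groups did not overlap, and the higher chaetocin sample was below the lower control although the controls differed from each other by 0.67 on the log2 scale. The log2 fold change was -1.65 (standard error 0.25, adjusted p = 0.0306 by edgeR's quasi-likelihood test), a level 68.2% lower. Without chaetocin replicate 2 the adjusted p was 0.0538, at a log2 fold change of -1.45.

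*PDGFRA* (ENSG00000134853, chr4:54229097-54298247) had 105 and 86 reads in control cells against 28 and 48 after chaetocin, or 4.30, 2.99, 1.29 and 1.35 CPM. The chaetocin samples were both below the controls and close to each other. Its log2 fold change of -1.46 (standard error 0.33) was near that of *PDGFRB*, but the adjusted p was 0.0655 by the same test. With single samples left out the adjusted p was 0.292 without control replicate 1, 0.0327 without control replicate 2, 0.0198 without chaetocin replicate 1 and 0.0358 without chaetocin replicate 2. The ratio of *PDGFRB* to *PDGFRA* per length was 24.8 and 22.5 in the control and 24.9 and 17.4 in the chaetocin samples, so the groups overlapped in the ratio.

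DDR2 is a receptor for collagen rather than for a soluble growth factor. *DDR2* (ENSG00000162733, chr1:162631373-162787400) fell from 369 and 406 CPM in the control samples to 231 and 215 CPM in the chaetocin samples. Replicates differed by at most 0.14 on the log2 scale, and the log2 fold change was -0.80 (standard error 0.16, adjusted p = 0.0488 by edgeR's quasi-likelihood test), a level 42.5% lower. The adjusted p lay close to the threshold and passed it under 6 of 11 alternatives, while the log2 fold change stayed between -0.88 and -0.72. Without control replicate 1 the adjusted p was 0.118, and without control replicate 2 it was 0.263.

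The ERBB family binds EGF-like growth factors as homodimers or heterodimers. *EGFR* (ENSG00000146648, chr7:55019021-55211628) stood at 282 and 258 CPM in control cells against 153 and 169 CPM after chaetocin, with counts of 6893, 7425, 3328 and 6014. The groups were well apart and replicates lay within 0.15 of each other on the log2 scale. The log2 fold change was -0.75 (standard error 0.15), a level 40.4% lower, and the adjusted p of 0.0514 just missed the threshold. It was 0.298 without control replicate 1, 0.14 without control replicate 2, 0.00468 without chaetocin replicate 1 and 0.00508 without chaetocin replicate 2.

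*ERBB2* (ENSG00000141736, chr17:39687914-39730426) was the receptor with both chaetocin samples above both controls. It stood at 6.35 and 6.33 CPM in control cells against 9.74 and 9.35 CPM after chaetocin, from counts of 155, 182, 212 and 332. The log2 fold change was 0.59 (standard error 0.21), and the adjusted p of 0.168 by edgeR's quasi-likelihood test did not pass. *MIEN1*, which overlaps its exons on the other strand, had 418, 398, 315 and 823 reads in the same samples, and *PGAP3*, which overlaps 194 exon bases on that strand, had 173, 143, 104 and 198 reads.

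Within a library, the ratio of *EGFR* to *ERBB2* does not depend on how libraries are scaled. Per length it was 36.7 and 33.6 in control cells against 12.9 and 14.9 after chaetocin. *EGFR* thus made up 97.0% and 96.5% of the ERBB family's summed RPKM without and 92.1% and 92.5% with chaetocin, while *ERBB2* made up 2.65% and 2.87% without and 7.11% and 6.19% with it. These ratios were not tested.

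*ERBB3* (ENSG00000065361, chr12:56076799-56103505) was the lowest of the receptors, with 17 and 31 reads in control cells against 12 and 49 after chaetocin. The groups overlapped. Its log2 fold change of 0.16 had a standard error of 0.54, and its sign turned when single samples were left out, with values from -0.70 to 0.63.

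MET, AXL and EPHA2 are linked to cell motility. *AXL* (ENSG00000167601, chr19:41219203-41261766) stood at 653 and 603 CPM in control cells against 389 and 275 CPM after chaetocin. Both chaetocin samples were below the controls, and they differed from each other by 0.50 on the log2 scale against 0.12 between the controls. The log2 fold change was -0.92 (standard error 0.21, adjusted p = 0.0626 by edgeR's quasi-likelihood test). The adjusted p was 0.131 without control replicate 1, 0.0986 without control replicate 2, 0.000171 without chaetocin replicate 1 and 0.0158 without chaetocin replicate 2.

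*MET* (ENSG00000105976, chr7:116672390-116798386) had the most reads of the 10 receptors, from 12291 to 23341 per sample. It stood at 754 and 812 CPM in control cells against 565 and 624 CPM after chaetocin. The groups were apart, and the log2 fold change was -0.40 (standard error 0.17, adjusted p = 0.244), a level 24.1% lower. The ratio of *MET* to *AXL* per length was 0.846 and 0.987 in control cells against 1.06 and 1.66 after chaetocin.

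*EPHA2* (ENSG00000142627, chr1:16124337-16156087) stood at 58.8 and 50.5 CPM in control cells against 45.6 and 29.95 CPM after chaetocin. Chaetocin sample 1 lay near the lower control, and the log2 fold change was -0.54 (standard error 0.21, adjusted p = 0.21). It was -0.27 without chaetocin replicate 2 (adjusted p = 0.279) and -0.86 without chaetocin replicate 1 (adjusted p = 0.00144). The adjusted p was 0.669 without control replicate 1, 0.295 without control replicate 2 and 0.0448 without the filter on low counts.

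*IGF1R* (ENSG00000140443, chr15:98648539-98964530) had the log2 fold change nearest to 0 among the receptors with more than 100 reads in every sample. It stood at 36.7 and 40.1 CPM in control cells against 32.4 and 33.9 CPM after chaetocin. The log2 fold change was -0.21 (standard error 0.15, adjusted p = 0.465). Its ratio per length to *INSR*, the insulin receptor gene, was 1.06 and 1.07 in the control and 0.966 and 0.740 in the chaetocin samples.

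**Figure D2:**
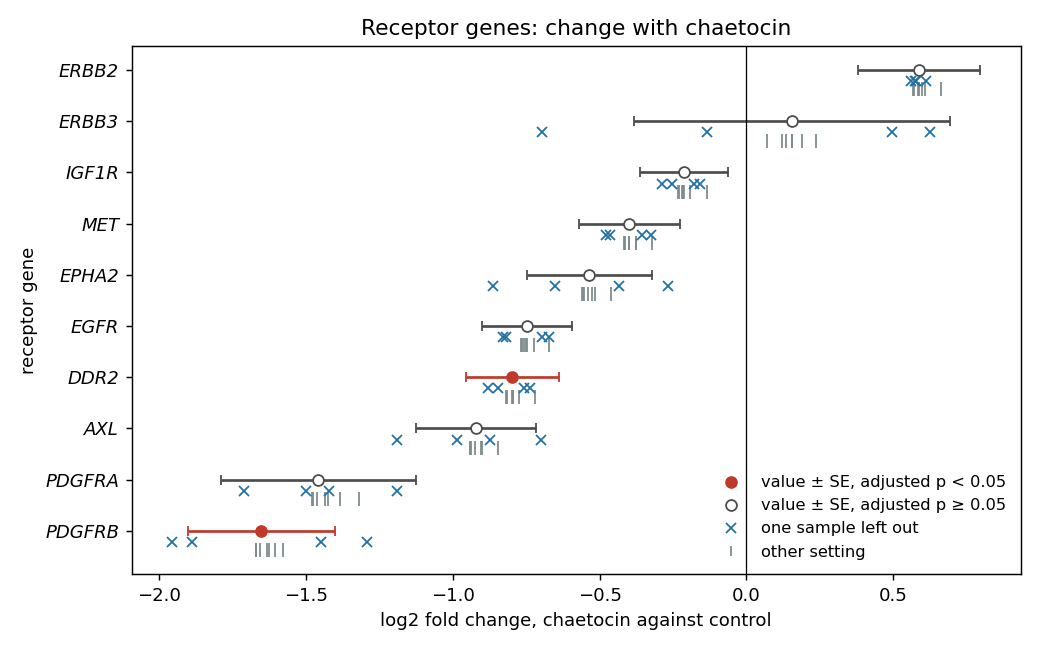
Log2 fold change of chaetocin over control for each receptor, with its standard error (n = 2 per group; red where the adjusted p is under 0.05), values with 1 sample left out (blue crosses) and under other settings (gray bars). *PDGFRB* and *DDR2* are red, 6 further receptors lie below 0 under every setting shown, *ERBB2* lies above 0, and *ERBB3* spans 0.

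With DESeq2's Wald test, the tool that the study's methods name, used with its own size factors and filter, 5 receptors were called lower, against 2.82% of the 16945 genes that received an adjusted p. Besides *PDGFRB* (adjusted p = 1.25e-07) and *DDR2* (adjusted p = 0.000477) these were *AXL* (adjusted p = 0.000569), *EGFR* (adjusted p = 0.00181) and *PDGFRA* (adjusted p = 0.0411). The log2 fold changes of these 5 differed little between the tools, from -0.76 for *EGFR* to -1.67 for *PDGFRB* with DESeq2. *MET* (adjusted p = 0.181) and *EPHA2* (adjusted p = 0.194) were called by neither of these tools at the settings used here.

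The sequence just upstream of the start sites is shown for the 2 receptors called lower and for *EGFR*, since most receptors lay lower together. The windows are the 250 bases before the RefSeq start on GRCh38.p14, for *EGFR* chr7:55018767-55019016, plus strand, for *PDGFRB* chr5:150155846-150156095, minus strand and for *DDR2* chr1:162630613-162630862, plus strand, each 5′ to 3′ on the gene's strand. The *PDGFRB* window reaches 27 bases into the GENCODE gene, and the *EGFR* and *DDR2* windows lie outside theirs. Capitals mark the GC box GGGCGG, the TATA motif TATAAA and the AP-1 motif TGANTCA, searched on both strands, and no marked motifs overlapped.

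EGFR: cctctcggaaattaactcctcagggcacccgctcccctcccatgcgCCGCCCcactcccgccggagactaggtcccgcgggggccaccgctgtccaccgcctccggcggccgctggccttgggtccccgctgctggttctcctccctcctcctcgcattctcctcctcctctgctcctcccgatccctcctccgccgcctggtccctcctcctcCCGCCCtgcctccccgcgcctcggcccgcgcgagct
PDGFRB: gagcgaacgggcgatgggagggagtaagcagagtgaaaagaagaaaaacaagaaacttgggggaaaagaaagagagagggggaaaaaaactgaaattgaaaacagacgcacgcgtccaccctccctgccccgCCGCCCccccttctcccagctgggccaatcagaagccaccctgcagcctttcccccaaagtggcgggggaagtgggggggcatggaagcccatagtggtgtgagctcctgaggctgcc
DDR2: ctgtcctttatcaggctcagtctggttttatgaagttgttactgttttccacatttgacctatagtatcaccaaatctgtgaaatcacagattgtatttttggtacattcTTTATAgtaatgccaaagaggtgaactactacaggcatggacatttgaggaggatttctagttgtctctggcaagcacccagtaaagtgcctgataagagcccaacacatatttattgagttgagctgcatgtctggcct

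The *EGFR* window held 2 GC boxes and 25 CpG dinucleotides, the *PDGFRB* window 1 GC box and 9 CpG, and the *DDR2* window 0 GC boxes, 1 TATA motif and 0 CpG. Of 35116 RefSeq promoters with a window of this length, 42.6% held the GC box, 10.7% the TATA motif and 6.57% the AP-1 motif, and the median number of CpG was 11. A window was found for 9 of the receptors, all but *ERBB3*. Of its 250 bases, 196 in *PDGFRA*, 180 in *ERBB2*, 20 in *AXL* and 18 in *EPHA2* lay inside the GENCODE gene. The windows of *PDGFRA* and *ERBB2* are thus mostly not upstream of the gene in that annotation. *AXL*, *PDGFRA*, *PDGFRB* and *DDR2*, with log2 fold changes from -1.65 to -0.80, held between 0 and 9 CpG, and the other 5, with log2 fold changes from -0.75 to 0.59, between 15 and 48. The order of the fold changes is not stable at this division. *EGFR* stood at -0.82 and *DDR2* at -0.74 without control replicate 2, and *EGFR* stood at -0.83, *DDR2* at -0.76 and *AXL* at -0.70 without chaetocin replicate 2. Among all tested genes with a window, calls in both directions were more frequent below 10 CpG. Of the 2017 genes below it 1.59% were called lower and 2.03% higher, against 0.658% and 0.892% of the 8972 other genes. The median log2 fold change was 0.034 below 10 CpG and -0.023 in the other genes, a difference opposite in sign to that among the receptors. The division at 10 CpG was set after the receptor values were seen, and no test was made.

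The ligands, relatives, adaptors and targets of the receptors were followed in 11 lists, which hold 125 genes besides the receptors, 105 of them tested. Of these 1 was called lower and 0 higher, against 0.743% and 1.11% of all genes tested. At an unadjusted p under 0.05, 32 were lower and 5 higher, against 9.43% and 10.9%, and the median log2 fold change was -0.22. Of the abundant genes defined above, 16.6% were lower at this p, with a median log2 fold change of -0.10. The lists were chosen with earlier results of these data known, so these shares are descriptive.

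Among 9 tested ERBB ligands, 0 were called. *TGFA*, a ligand of EGFR, stood at 245 and 145 CPM in control cells against 124 and 76.4 CPM after chaetocin, a log2 fold change of -0.96 (adjusted p = 0.126). *HBEGF* stood at 64.0 and 60.4 CPM without and at 45.3 and 22.7 CPM with chaetocin. *EREG* stood at 486 and 360 CPM without and at 662 and 172 CPM with it. The 2 chaetocin samples of *EREG* thus lay on either side of both controls, and the standard error of its log2 fold change was 0.54. *EGF* itself was low, at 4.96 and 4.11 CPM in control and 6.62 and 9.94 CPM in chaetocin samples. Its log2 fold change was 0.88 (adjusted p = 0.13 by edgeR's quasi-likelihood test). *EPGN*, named after its values were seen, had 1 and 3 reads in control and 17 and 15 reads in chaetocin samples. Its log2 fold change was 2.89 (adjusted p = 0.0974 by the same test), and it passed the filter only through the chaetocin samples.

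The neuregulins NRG1 and NRG2 bind ERBB3 and ERBB4. *NRG1* stood at 64.1 and 55.4 CPM in control and at 68.9 and 20.7 CPM in chaetocin samples. *NRG2* stood at 8.93 and 8.84 CPM without and at 4.78 and 4.03 CPM with chaetocin (log2 fold change -1.02, adjusted p = 0.0633). *BTC* and *NRG4*, further genes of the ERBB ligand list, lay between 3.17 and 4.81 CPM in all samples. *AREG* was listed at 0 in every sample.

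For the PDGF receptors, *PDGFC* stood at 182 and 159 CPM in control and at 172 and 94.9 CPM in chaetocin samples, and *PDGFA* at 10.6 and 11.2 CPM and at 16.3 and 11.2 CPM. In both the groups overlapped, and *PDGFB* and *PDGFD* had at most 4 reads in a sample. Neither tested PDGF ligand was called.

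*HGF*, the ligand of MET, stood at 79.7 and 68.2 CPM in control and at 56.3 and 23.7 CPM in chaetocin samples (log2 fold change -0.89, adjusted p = 0.213). *GAS6*, the ligand of AXL, stood at 73.1 and 63.4 CPM without and at 101 and 77.5 CPM with chaetocin, and *PROS1*, a related ligand of the same receptor family, overlapped between the groups. U87MG cells thus carried messages for both MET and HGF and for both AXL and GAS6. *IGF1* and *IGF2* had at most 5 reads in a sample.

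Among the ephrin-A genes, whose products bind EPHA2, *EFNA5* stood at 30.6 and 31.2 CPM in control and at 39.3 and 25.2 CPM in chaetocin samples. *EFNA4* stood at 4.02 and 4.14 CPM and at 4.64 and 5.97 CPM, and *EFNA3* lay between 0.696 and 1.56 CPM. The fibrillar collagens that bind DDR2 had a median log2 fold change of -0.93 over 5 tested genes, of which 0 were called. *COL1A1* stood at 707 and 466 CPM in control and at 523 and 226 CPM in chaetocin samples, and *COL1A2* at 684 and 515 CPM and at 375 and 256 CPM (adjusted p = 0.0814). *COL5A1* and *COL5A2* had log2 fold changes of -1.18 and -0.997. *COL3A1* was low, with 12 and 4 reads in control and 24 and 20 reads in chaetocin samples, and both chaetocin samples lay above both controls (log2 fold change 1.39, standard error 0.70, adjusted p = 0.307).

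Of the 8 genes for IGF binding proteins and the IGF2 receptor, 0 were called, with a median log2 fold change of -0.87. *IGFBP3* stood at 751 and 266 CPM in control and at 217 and 66.3 CPM in chaetocin samples. The control samples differed by more than the gap between the groups, and the adjusted p was 0.273. This gene was named after its values were seen.

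Of 21 relatives of the receptors, 12 were tested and 0 called. *TYRO3*, a relative of AXL, lay between 73.5 and 77.9 CPM in all 4 samples, and the ratio of *AXL* to *TYRO3* per length was 18.9 and 16.4 in control and 10.8 and 7.82 in chaetocin samples. *MERTK*, the third member of that family, had 0 and 3 reads in control and 9 and 43 reads in chaetocin samples (adjusted p = 0.0864), and *ERBB4* had 2 and 3 reads and 14 and 21 reads (adjusted p = 0.0817). The highest of these levels was 1.21 CPM, in *MERTK*. *MERTK* and *ERBB4* passed the filter only through the chaetocin samples, which favoured a rise in the genes tested. *KDR*, a receptor for vascular endothelial growth factor, stood at 8.52 and 13.0 CPM in control and at 5.28 and 5.46 CPM in chaetocin samples (log2 fold change -1.004, adjusted p = 0.0853). *TYRO3*, *INSR*, *KDR*, *MERTK* and *ERBB4* were named after their values were seen.

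Downstream of the receptors, 0 of 27 tested adaptor and relay genes were called, and their median log2 fold change was -0.17. In 21 of the 27 the fold change was below 0, against 8059 of all 16416 genes tested. At an unadjusted p under 0.05, 4 were lower, against 9.43% of all genes tested and 16.6% of the abundant genes defined above. The median log2 fold change of those abundant genes was -0.10. Genes that limit or degrade receptors had a median of -0.23 over 19 tested genes, with 0 called. *ERRFI1*, an inhibitor of EGFR that growth signals induce, stood at 485 and 265 CPM in control and at 212 and 79.2 CPM in chaetocin samples (adjusted p = 0.172).

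The 12 MAPK output genes, which are transcribed when the MAPK pathway is active, had a median log2 fold change of -0.56 and all 12 values were below 0, with 0 called. Of these, 8 were lower at an unadjusted p under 0.05, against 9.43% of all genes tested and 16.6% of the abundant genes defined above. In 10 both chaetocin samples lay below both controls, against 26% and 38.7%. The list holds *EPHA2*, which is also a receptor here. *DUSP4* and *SPRY4*, feedback inhibitors of the pathway, came closest to the threshold. *DUSP4* stood at 131 and 130 CPM in control and at 82.7 and 62.1 CPM in chaetocin samples (log2 fold change -0.85, adjusted p = 0.0506). *SPRY4* stood at 55.2 and 53.2 CPM and at 33.1 and 22.8 CPM (log2 fold change -0.96, adjusted p = 0.0519). *SPRED1* and *SPRED2* stood between 79.2 and 121 CPM in all samples, with log2 fold changes of -0.0082 and -0.070. *ERRFI1* and these 4 genes were named after their values were seen.

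Membrane proteases of the ADAM family release ERBB ligands from the cell surface. *ADAM12* was the pathway gene called lower. It fell from 395 and 332 CPM in the control samples to 167 and 143 CPM in the chaetocin samples (log2 fold change -1.23, standard error 0.17, adjusted p = 0.0279 by edgeR's quasi-likelihood test). All 7 genes of the sheddase and proteolysis list had a log2 fold change below 0, with a median of -0.68, and 6 had an unadjusted p under 0.05, against 9.43% of all genes tested that were lower at this p and 16.6% of the abundant genes. *ADAM10*, named after its value was seen, stood at 249 and 253 CPM in control and at 149 and 162 CPM in chaetocin samples (adjusted p = 0.0559).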

How the data were processed

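U87MG RNA from 2 control and 2 chaetocin samples was sequenced as single-end reads after selection of polyadenylated RNA. The authors deposited raw counts of reads per Ensembl gene, 1 table per sample, without normalization. The submitters' processing notes name cutadapt, TopHat2, SAMtools and the build GRCh37, without versions, and the counting tool and annotation are not given in the sources used here. Symbols, lengths and GRCh38 positions came from GENCODE v29, which listed 52338 of the 57905 identifiers.

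Genes were tested on the counts with edgeR 4.0.16 in R 4.3.3 (filterByExpr, minimum count 10, TMM, robust quasi-likelihood fit, no block), with Benjamini-Hochberg adjustment over all 16416 genes and a threshold of 0.05. CPM and RPKM use TMM-scaled library sizes, with factors between 0.942 and 1.09. Standard errors were derived from the F statistic. Floors in CPM cover counting error only. The script was tested on simulated data. DESeq2 1.42.0 was an alternative, beside other scalings, other filters, thinning to the smallest library, a replicate block and leaving out each sample.

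The receptors and lists were chosen with earlier results of these data known. All receptors, called members of the lists (at most 4 per list), and ligands with at least 1 CPM in a sample are named, with exceptions stated beside them. Promoter windows are from RefSeq (GRCh38.p14). The catalytic loop of 1 receptor and 1 leukocyte marker are not reported here.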

Additional observations from a re-analysis of the deposited data

How the results depend on the processing

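Each choice was changed in turn, except that DESeq2 was run with its own size factors and filter, so its counts cannot be put down to the test alone. Where leaving out a sample left 1 in a group, that sample was assumed to vary like the other group. In these comparisons the cause of the shifts below was not tested. The count of receptors called lower was 2, and it was 1 with upper-quartile normalization, under a stricter minimum of 10 counts per sample and after thinning to the smallest library. Leaving out the filter gave 6, the replicate block gave 6 and DESeq2 gave 5. With a sample left out it ranged from 1 to 6, the highest without chaetocin replicate 1, and without control replicate 1 it was 1. The receptors called higher stayed at 0 under all 11 alternatives. Over all genes, 182 were called higher and 122 lower. These counts were 787 and 759 without a filter, 114 and 80 under the stricter minimum, 1036 and 1053 under the replicate block, 382 and 478 with DESeq2, and between 215 and 1332 higher and between 97 and 1673 lower with a sample left out. In the pathway lists, 0 called higher and 1 called lower became 2 and 19 without a filter, 5 and 30 under the replicate block and 0 and 13 with DESeq2, and with a sample left out they ranged from 0 to 4 and from 4 to 32.

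Of 110 receptor values under the alternatives, 83 kept their direction and side of the threshold, 19 newly passed it, 6 no longer passed it, and 2 reversed. The reversed values were both of *ERBB3*, which ranged from -0.70 to 0.63 with a sample left out, at -0.13 without control replicate 1 and -0.70 without chaetocin replicate 2. *DDR2* lost its call without control replicate 1 (adjusted p = 0.118) and without control replicate 2 (adjusted p = 0.263), and with upper-quartile normalization, the stricter minimum and thinning, where the adjusted p lay between 0.0524 and 0.0599. Samples numbered 1 and 2 occur in both groups, and the numbers are not stated to mark a shared batch. Their differences correlated across genes with r = 0.228, and the replicate block raised the median prior degrees of freedom from 6.29 to 41.5. *EGFR* (adjusted p = 0.00142), *AXL* (adjusted p = 0.000456) and *PDGFRA* (adjusted p = 0.00448) passed with the block by edgeR's quasi-likelihood test, though not at the settings reported. Over the genes shared with each alternative, the median shift of a gene's log2 fold change was largest, 0.077, with upper-quartile normalization. *EPHA2*, not called at the settings reported, passed with an adjusted p of 0.0448 without a filter, 0.0175 with the replicate block and 0.00144 without chaetocin replicate 1. *ERBB3* and *PDGFRA* had the fewest reads of the receptors.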
